A study of Homo sapiens with 12 samples.

Results

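The 10 genes described encode factors that act on RNA polymerase II after it has left the promoter, and their mRNA was followed in THZ1-treated ovarian cancer cells. They are the DSIF subunits SUPT4H1 and SUPT5H, the histone chaperone SUPT6H, the PAF1 complex genes PAF1, CTR9, LEO1, CDC73 and RTF1, the cleavage-stimulating factor TCEA1 (TFIIS) and the elongation factor ELL2. The 10 members were taken by their exact names from the 23621 gene rows of the deposited tables, and all 10 were among the 14251 active genes, those with an FPKM (sequenced fragments scaled by transcript length and library size) above 1 in at least 1 of the 12 libraries. Poly(A) RNA was sequenced from the ovarian cancer cell lines KURAMOCHI (Ku), grown in RPMI, and COV362 (Cov), grown in DMEM, both untransduced. Each line was treated for 6 hr with DMSO, the vehicle, or with THZ1, a covalent inhibitor of CDK7, CDK12 and CDK13, at 50 nM or at 250 nM, with 2 libraries per group and 6 per line. The labels do not say whether the 2 libraries of a group came from separate cultures, so p-values measure the spread between libraries, which may be technical.

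After initiation, RNA polymerase II commonly stops shortly downstream of the start site, held by DSIF together with NELF. Phosphorylation by P-TEFb releases NELF and turns DSIF into a factor that travels with the polymerase. SPT6 and the PAF1 complex then join the elongating polymerase and help it through nucleosomes, TFIIS restarts polymerases that have backtracked, and ELL proteins raise the rate of elongation within the super elongation complex. CDK7, CDK12 and CDK13, the kinases that THZ1 inhibits, phosphorylate the polymerase itself or other kinases that act on it.

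At 250 nM THZ1 the mRNA of all 10 factors fell in both lines on the spike-in scale. In Ku cells 10 of 10 were called lower than in DMSO, where 68.6% of all active genes were, and in Cov cells 10 of 10, where 84.0% of active genes were. Both 250 nM libraries lay below both DMSO libraries for every member, as for 95.9% of active genes in Ku and 95.6% in Cov. LEO1 fell most in both lines, to 14.6% of its DMSO level in Ku and 8.28% in Cov. TCEA1 kept the largest share in Ku, 51.6%, and SUPT5H in Cov, 49.8%. At 50 nM the lines gave unlike counts: PAF1 was the 1 member of 10 called lower in Ku, beside 11.3% of active genes, and 8 of 10 were called lower in Cov, beside 70.5%; without DMSO replicate 1 or DMSO replicate 2 the Cov count was 5 or 3 (48.4% and 30.3% of active genes), and without any 1 library the Ku count was 0 (at most 0.919%). With equal medians or median-of-ratios scaling, described below, 0 members were called lower at 50 nM in either line. Of active genes 0.737% and 2.72% were in Ku, and 0.147% and 0.772% in Cov. Genes were called where the adjusted p was below 0.001 and the log2 fold change exceeded 0.5 in size. These values came from limma on log2(FPKM + 1) fitted to the 6 libraries of a line, with Benjamini-Hochberg adjustment over the 14251 genes. The lines' tables were normalized separately and each line was fitted alone, and the difference between the lines was not tested.

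**Figure D1:**
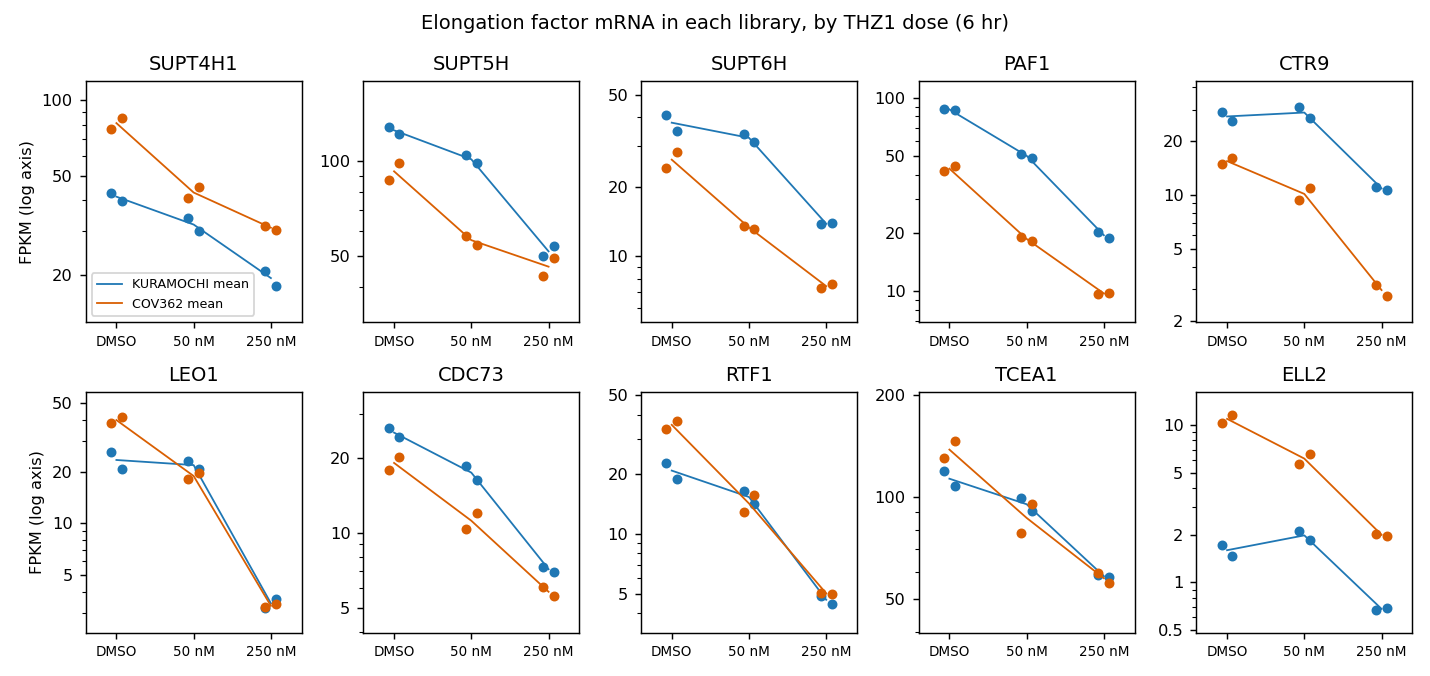
FPKM of the 10 factors (log axis, one panel per gene) in every library of KURAMOCHI (blue) and COV362 (orange), in DMSO and at 50 nM and 250 nM THZ1. Points are single libraries and lines join the means of 2. Both 250 nM libraries lie below both DMSO libraries in every panel and both lines on this spike-in scale, whereas the DMSO and 50 nM libraries of CTR9 and LEO1 overlap in KURAMOCHI and those of ELL2 are higher at 50 nM.

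Most active genes moved in the same direction. For active genes the median log2 fold change in Ku was -0.40 with 50 nM and -1.11 with 250 nM, and in Cov -0.85 and -1.31; for the 10 members the medians were -0.28, -1.32, -0.83 and -1.84 in that order. Of the 10, 7 fell further than the median active gene at 250 nM in Ku (all but SUPT4H1, TCEA1 and ELL2), and 8 did in Cov (all but SUPT5H and TCEA1). The Ku count was 5 with a pseudocount of 0.1 or a minimum FPKM of 10, 10 with no minimum FPKM, and 4 under either of the other scalings described next. The members' median at 250 nM in Ku did not stay below that of active genes: with a pseudocount of 0.1 it was -1.38 beside -1.39, with equal medians 0.45 beside 0.29, and with median-of-ratios scaling 0.064 beside -0.00088. The median FPKM of active genes lay between 10.9 and 14.4 in the 4 DMSO libraries and between 2.84 and 3.32 in the 4 libraries at 250 nM. The tables hold FPKM and no read counts, which leaves sequencing depth unknown. Per the study's methods the spike-ins were added to RNA normalized by cell count, so the spike-in scale is meant to read per cell. The cell counts are not given in the sources used here, so that could not be checked. Bulk RNA cannot tell a fall in all cells from a larger fall in some. Of 10 serous epithelial markers, 8 in Ku and 9 in Cov were above 1 FPKM in every library, PAX8, KRT8 and KRT18 included, with MUC16 and CDH1 missing in Ku and WT1 in Cov. Their summed FPKM was between 1747 and 4942, against at most 48.5 for 6 stromal, 5.40 for 5 immune and 11.8 for 3 endothelial markers, and 1 stromal, 1 immune and 2 endothelial markers in Ku and 1 of each in Cov were above 1 FPKM in every library, among them CD68 (at most 4.53 FPKM) and CDH5 (at most 8.67) in both lines and COL1A2 (at most 44.1) in Cov.

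For several members the sign depended on the scale. Equal medians and median-of-ratios scaling, used next, remove a fall that most genes share. A member that fell less than most genes can then turn positive by construction. Such values compare a member with other genes and do not test its fall on the spike-in scale. When each library was instead brought to the same median FPKM, the median log2 fold change of active genes at 250 nM became 0.29 in Ku and 0.31 in Cov, and with median-of-ratios scaling it became -0.00088 and 0.011. With equal medians, 1 member was called lower and 3 higher in Ku (11.6% and 26.9% of active genes), and 2 lower and 3 higher in Cov (11.3% and 26.4%). With median-of-ratios scaling 1 was lower and 1 higher in Ku (19.0% and 11.1%), and 3 were lower and 0 higher in Cov (18.9% and 8.57%). LEO1 was called lower at 250 nM in both lines under all 3 scalings, with log2 fold changes of -2.46, -1.17 and -0.71 in Ku and -3.25, -1.80 and -1.39 in Cov for the spike-in, median-of-ratios and equal-median scales. RTF1 and PAF1 also stayed below 0 in every one of these, though RTF1 was called on the 2 other scales in Cov only and PAF1 in neither line. SUPT4H1, SUPT5H and TCEA1 had positive values in both lines on both of the other scales. SUPT6H, CTR9 and ELL2 did so in Ku only. SUPT6H in Cov and CDC73 in both lines were positive with equal medians but not with median-of-ratios scaling.

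**Figure D2:**
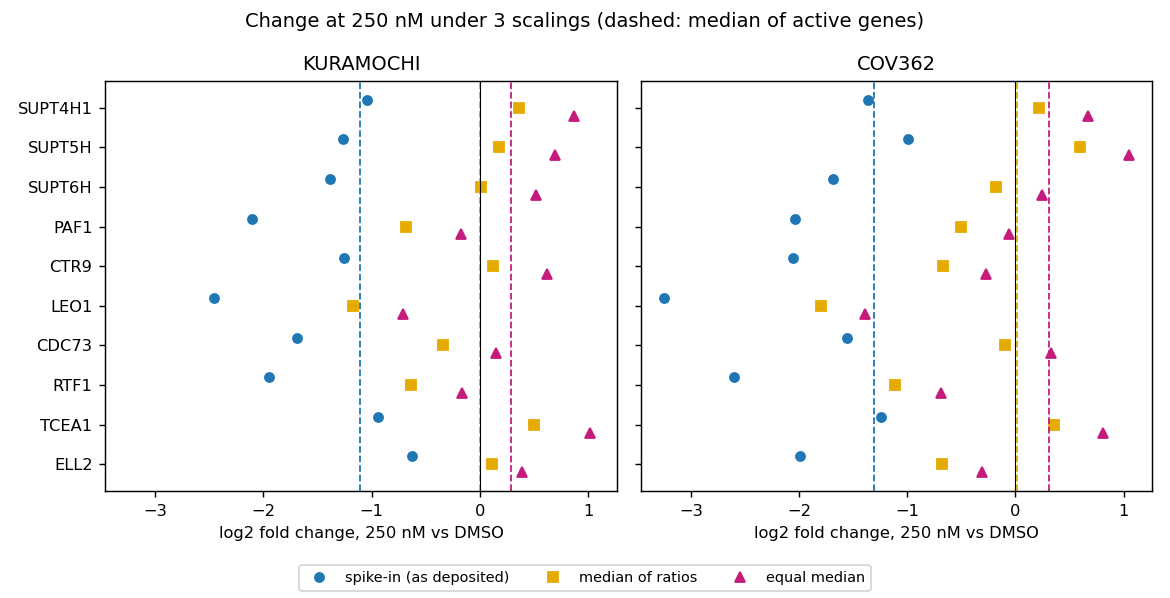
Log2 fold change at 250 nM against DMSO (x axis) of each of the 10 factors (y axis) with the deposited spike-in scale (circles), median-of-ratios scaling (squares) and equal medians (triangles); dashed lines mark the median of active genes on each scale. LEO1 lies left of 0 on all 3 scales in both lines, from -3.25 to -0.71, while SUPT4H1, SUPT5H and TCEA1 lie right of 0 on the other 2 scales.

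In DMSO the 10 transcripts spanned a wide range, compared here as FPKM, which is per length. SUPT5H and TCEA1 were the most abundant in both lines: in Ku their means were 126 and 113 FPKM, above PAF1 with 87.1 and 86.9 FPKM in its libraries. Next in Ku came SUPT4H1 (41.2 FPKM) and SUPT6H (37.8 FPKM), whose libraries overlapped, and then CTR9, CDC73, LEO1 and RTF1, between 27.5 and 20.9 FPKM, where each overlapped its neighbour. ELL2 was lowest, with 1.60 FPKM. In Cov the order was TCEA1 (138 FPKM), SUPT5H (93.0), SUPT4H1 (81.1), PAF1 (43.1), LEO1 (39.9), RTF1 (35.5), SUPT6H (26.2), CDC73 (19.0), CTR9 (15.5) and ELL2 (10.98), and no neighbours overlapped in their 2 libraries. Levels were not compared between the lines by a test.

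SUPT5H and SUPT4H1 encode the large and the small subunit of DSIF, the factor that both pauses the polymerase and later accompanies it. SUPT5H in Ku was at 129 and 122 FPKM in DMSO, 104 and 98.7 at 50 nM, and 49.9 and 53.7 at 250 nM. In Cov it was at 87.3 and 98.7 FPKM in DMSO, 58.0 and 54.4 at 50 nM, and 43.2 and 49.4 at 250 nM. The 3 groups did not overlap in either line, and most of the loss came at 250 nM in Ku and at 50 nM in Cov. Between 50 nM and DMSO the log2 fold change was -0.30 ± 0.07 (SE) in Ku, which was not called (limma, adjusted p = 0.0110), and -0.71 ± 0.10 in Cov, which was (limma, adjusted p = 0.000428) but was lost without either DMSO library or 50 nM replicate 2. Between 250 nM and 50 nM it was -0.96 ± 0.07 in Ku and called (limma, adjusted p = 0.000108), though not without 50 nM replicate 1 or 250 nM replicate 1, and -0.28 ± 0.10 in Cov and not called (limma, adjusted p = 0.0523). At 250 nM against DMSO SUPT5H fell in both lines, with log2 fold changes of -1.26 ± 0.07 in Ku and -0.99 ± 0.10 in Cov, the second being the smallest fall of any member in Cov.

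SUPT4H1 had the same order of groups without overlap. Its FPKM in Ku was 42.8 and 39.6 in DMSO, 33.7 and 30.0 at 50 nM, and 20.7 and 18.1 at 250 nM. In Cov it was 76.8 and 85.4 in DMSO, 40.6 and 45.0 at 50 nM, and 31.5 and 30.3 at 250 nM. The larger step again came late in Ku and early in Cov, and 47.2% and 38.1% of the DMSO level remained at 250 nM. Its log2 fold change at 250 nM was -1.05 ± 0.10 in Ku (limma, adjusted p = 0.000119) and -1.36 ± 0.09 in Cov (limma, adjusted p = 5.9e-06), and the Ku call was lost without DMSO replicate 1 (-0.99) or without 250 nM replicate 2 (-0.95). As a share of the summed FPKM of both DSIF transcripts, a ratio within a library that no scaling alters, SUPT4H1 made up, in Ku, 24.7% ± 0.381 (SD, n = 2) under DMSO, 23.9% ± 0.773 under 50 nM and 27.3% ± 2.90 under 250 nM, and in Cov 46.6% ± 0.303, 43.2% ± 2.91 and 40.1% ± 2.93. The SUPT4H1 level is uncertain, since 2 pseudogenes carry its name and in the GENCODE annotation 1325 of its exon bases belong also to a joined transcript on the same strand and 577 to the antisense gene TSPOAP1-AS1, and how the counting used strand is not given in the sources used here.

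SUPT6H encodes SPT6, the chaperone that puts nucleosomes back behind the polymerase. Its FPKM in Ku was 40.9 and 34.8 in DMSO, 33.8 and 31.2 at 50 nM, and 13.7 and 13.9 at 250 nM. In Cov it was 24.0 and 28.3 in DMSO, 13.5 and 13.2 at 50 nM, and 7.29 and 7.60 at 250 nM. In Ku the 50 nM libraries sat just under the lower DMSO library, and in Cov they lay well under both. The log2 fold change at 50 nM was -0.21 ± 0.10 in Ku and was not called (limma, adjusted p = 0.122), against -0.92 ± 0.10 in Cov, which was called (limma, adjusted p = 0.000135), though not without DMSO replicate 2. At 250 nM SUPT6H fell in both lines on the spike-in scale, leaving 36.6% of the DMSO level in Ku and 28.4% in Cov. The log2 fold changes were -1.38 ± 0.10 in Ku and -1.68 ± 0.10 in Cov, and both were positive with equal medians.

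**Figure D3:**
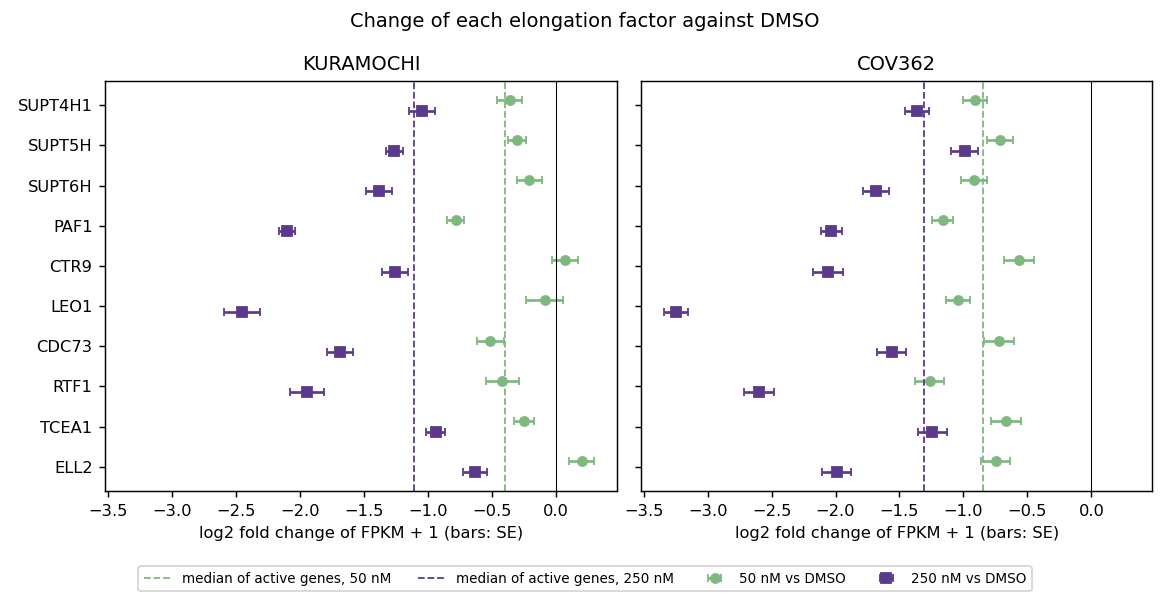
Log2 fold change of FPKM + 1 against DMSO (x axis, spike-in scale) of the 10 factors (y axis) at 50 nM (green circles) and 250 nM (purple squares) in each line; bars are standard errors from limma and dashed lines the median of active genes at each dose. In KURAMOCHI the 50 nM values run from -0.78 for PAF1 to 0.20 for ELL2, and in COV362 from -1.26 for RTF1 to -0.57 for CTR9; at 250 nM every value is below 0, though not on other scales for several members.

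The PAF1 complex is built of PAF1, CTR9, LEO1, CDC73 and WDR61, with RTF1 more loosely bound in human cells; it travels with the polymerase and is needed for histone modifications laid down over transcribed genes. CTR9 is its scaffold, PAF1 and LEO1 form a pair, CDC73 is the tumour suppressor parafibromin, and RTF1 stimulates elongation and histone H2B ubiquitylation. PAF1 in Ku was at 87.1 and 86.9 FPKM in DMSO, 51.2 and 49.1 at 50 nM, and 20.2 and 18.9 at 250 nM. In Cov it was at 41.9 and 44.2 FPKM in DMSO, 19.1 and 18.2 at 50 nM, and 9.73 and 9.80 at 250 nM. Its libraries agreed closely and its groups were far apart at every step. PAF1 was the only member called at 50 nM in Ku, with a log2 fold change of -0.78 ± 0.07 (limma, adjusted p = 0.000482), and this call was lost whenever 1 library of the line was left out, with values between -0.81 and -0.75. In Cov the 50 nM value was -1.16 ± 0.08 (limma, adjusted p = 2.79e-05), and PAF1 reached -2.10 ± 0.07 in Ku and -2.03 ± 0.08 in Cov at 250 nM.

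LEO1 behaved otherwise at the lower dose. Its Ku libraries held 26.1 and 20.6 FPKM in DMSO, 23.04 and 20.6 at 50 nM, and 3.22 and 3.61 at 250 nM. In Cov the values were 38.1 and 41.7 in DMSO, 18.2 and 19.5 at 50 nM, and 3.24 and 3.36 at 250 nM. In Ku the 50 nM libraries thus overlapped the DMSO libraries, while in Cov they were clearly lower. The 50 nM log2 fold change was -0.09 ± 0.14 in Ku (limma, adjusted p = 0.628; 0.077 without DMSO replicate 1) and -1.04 ± 0.09 in Cov (limma, adjusted p = 5.38e-05). From 50 nM to 250 nM the log2 fold change of LEO1 was -2.37 in Ku and -2.20 in Cov (limma, adjusted p = 7.2e-05 and 3.38e-05), the largest such steps among the 10 members. Against DMSO its fall at 250 nM was -2.46 ± 0.14 in Ku and -3.25 ± 0.09 in Cov, and 8.91% of active genes in Ku and 1.83% in Cov fell further.

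RTF1 came second to LEO1 in Cov. It had 33.8 and 37.3 FPKM in DMSO, 12.9 and 15.6 at 50 nM, and 5.03 and 5.01 at 250 nM in that line. In Ku it had 22.7 and 19.0 in DMSO, 16.5 and 14.2 at 50 nM, and 4.88 and 4.45 at 250 nM. The 4 libraries at 250 nM all lay between 4.45 and 5.03 FPKM, on tables that were normalized separately. The log2 fold change at 250 nM was -1.95 ± 0.13 in Ku and -2.60 ± 0.11 in Cov, and at 50 nM it was -0.42 ± 0.13 in Ku (limma, adjusted p = 0.0376, not called) and -1.26 ± 0.11 in Cov (limma, adjusted p = 5.72e-05), the largest 50 nM fall of the members in Cov.

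CTR9, like LEO1, differed at 50 nM in Ku from DMSO by less than its standard error. Ku libraries had 28.9 and 26.0 FPKM in DMSO, 30.9 and 26.8 at 50 nM, and 11.1 and 10.7 at 250 nM. Cov libraries had 14.9 and 16.0 in DMSO, 9.38 and 10.9 at 50 nM, and 3.17 and 2.74 at 250 nM. The DMSO and 50 nM libraries overlapped in Ku and not in Cov. At 50 nM the log2 fold change was 0.07 ± 0.10 in Ku (limma, adjusted p = 0.596) and -0.57 ± 0.11 in Cov (limma, adjusted p = 0.00233), neither of them called. The Ku value changed sign when 1 library was left out, to -0.0053 without DMSO replicate 2 and -0.029 without 50 nM replicate 1. At 250 nM CTR9 fell on the spike-in scale, to 39.7% of its DMSO level in Ku and 19.1% in Cov. The log2 fold changes were -1.26 ± 0.10 in Ku and -2.06 ± 0.11 in Cov, and that of Ku was positive on both other scales.

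CDC73, the longest of the 10 genes, was lower at each dose step. In Ku it had 26.2 and 24.1 FPKM in DMSO, 18.6 and 16.2 at 50 nM, and 7.28 and 6.97 at 250 nM. In Cov it had 17.9 and 20.2 in DMSO, 10.3 and 12.01 at 50 nM, and 6.03 and 5.54 at 250 nM. No 2 groups overlapped. The fall at 250 nM was -1.69 ± 0.10 in Ku and -1.56 ± 0.11 in Cov, and the 50 nM values were -0.51 ± 0.10 (limma, adjusted p = 0.00807, not called) and -0.72 ± 0.11 (limma, adjusted p = 0.000647, called). The call of CDC73 at 50 nM in Cov was lost with no minimum FPKM and without either DMSO library or 50 nM replicate 1.

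The makeup of the PAF1 complex transcripts among the members was described as shares. Each was expressed as a percentage of the summed FPKM of the 5 genes in its library. This ratio within the library is the same under every scaling. WDR61, the remaining subunit, was left out of the sum, though its mean FPKM in Cov was 168 in DMSO and 72.7 at 250 nM. In Ku it was 51.6 and 31.9. A share that rose among the 5 genes may not rise with WDR61 in the sum. The share of LEO1 was 13.7% and 11.7% in the DMSO libraries of Ku, 16.4% and 16.2% at 50 nM, and 6.90% and 8.11% at 250 nM. In Cov it was 26.0% and 26.1% in DMSO, 26.0% and 25.6% at 50 nM, and 11.9% and 12.7% at 250 nM. In both lines the 250 nM libraries stood clear of the others, and LEO1 had moved from 26.1% ± 0.106 (SD, n = 2) to 12.3% ± 0.564 in Cov. CTR9 took up more of the sum in Ku, from 14.9% ± 0.292 in DMSO to 21.6% ± 0.614 at 50 nM and 23.9% ± 0.0644 at 250 nM, but in Cov went from 10.1% ± 0.0845 to 13.9% ± 0.623 and back to 11.01% ± 0.908. CDC73 went from 12.4% ± 0.310 to 21.6% ± 0.862 of the sum in Cov at 250 nM and from 13.7% ± 0.0608 to 15.6% ± 0.0240 in Ku. PAF1 did not move stepwise, with Ku shares of 47.4% ± 2.56 under DMSO, 37.6% ± 1.53 under 50 nM and 42.8% ± 0.611 under 250 nM, and Cov shares of 28.2% ± 0.573, 25.6% ± 2.46 and 36.4% ± 0.905 in the same order. RTF1 had 11.3% ± 0.784, 11.5% ± 0.433 and 10.2% ± 0.334 in Ku and 23.2% ± 0.241, 19.5% ± 1.46 and 18.7% ± 0.300 in Cov, where both 250 nM libraries lay below both DMSO libraries, as they did in Ku. These shares are described by whether the libraries overlapped and were not tested; an exact two-sided permutation test of 2 libraries against 2 cannot give a p below 0.33.

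**Figure D4:**
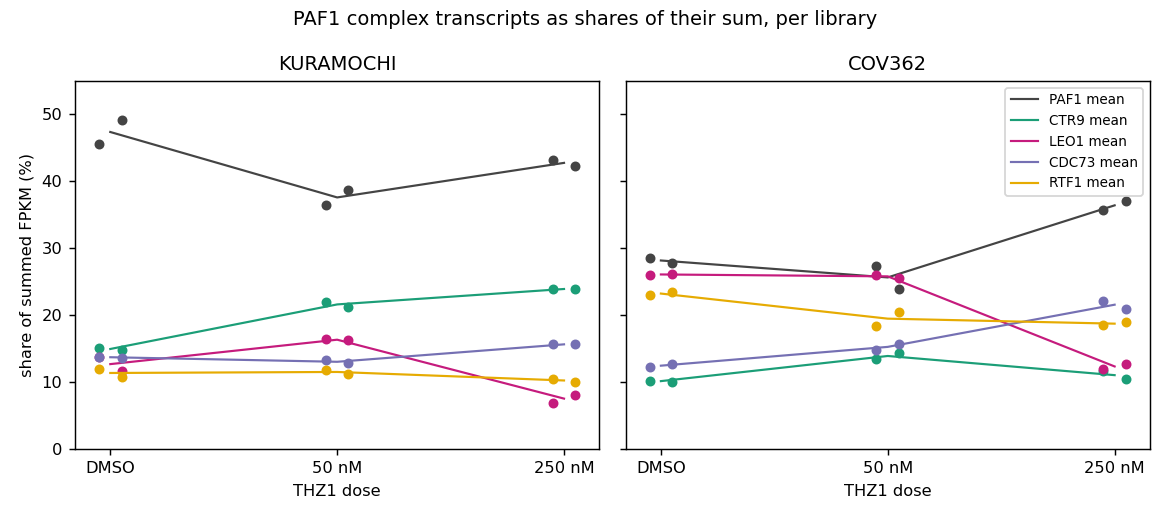
Each PAF1 complex transcript among the members as a percentage of the summed FPKM of the 5 genes (y axis) against THZ1 dose (x axis) in each line. WDR61 is not part of the sum. Points are single libraries and lines join the means of 2. LEO1 is lower at 250 nM than in DMSO in both lines, at 7.51% in KURAMOCHI and 12.3% in COV362, while CTR9 in KURAMOCHI and CDC73 in COV362 take a larger share.

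The upstream sequence is shown for CTR9 and RTF1, which lie in the same complex and whose 50 nM values lay apart in both lines, and whose 120 bases before the RefSeq start overlap no annotated exon. Sequences came from the RefSeq promoter table, built on GRCh38.p14, and were placed by exact match on GRCh37, the build of the files, at chr11:10772673-10772792 (plus strand) for CTR9 and chr15:41709173-41709292 (plus strand) for RTF1. The RTF1 stretch lies within the span annotated for the gene, which starts at chr15:41700606. Capitals mark GGGCGG, the GC box, or CCGGAAG, an ETS-type core, on either strand.
CTR9: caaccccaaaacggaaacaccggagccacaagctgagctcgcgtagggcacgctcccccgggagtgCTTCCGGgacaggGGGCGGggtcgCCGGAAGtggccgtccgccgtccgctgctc
RTF1: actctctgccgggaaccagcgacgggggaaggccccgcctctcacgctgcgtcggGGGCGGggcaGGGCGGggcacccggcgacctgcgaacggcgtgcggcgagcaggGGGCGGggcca
CTR9 holds 1 GC box between 2 ETS-type cores, and RTF1 holds GC boxes alone, in stretches of 70.8% and 79.2% G and C against a median of 60.0% over all promoters of the table. Of the 10 members, 7 had an entry in the table (all but CDC73, TCEA1 and ELL2). In the window from 250 bases before to 50 after the start, searched on both strands with matches allowed to share bases, GGGCGG was present in 7 of these 7 members and in 45.0% of all 35116 promoters. CCGGAAG was present in CTR9 and SUPT4H1 (10.3% of promoters), CCAAT in PAF1 (34.6%), and neither TATAAA (11.5%) nor CACGTG (7.26%) in any. These are matches of letters, and binding was not measured. CTR9 and RTF1 were picked with their 50 nM values known, and a link between motifs and response was not tested.

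TCEA1 encodes TFIIS, which lets a stalled polymerase cut its transcript and resume. In Ku it had 119 and 107 FPKM in DMSO, 99.4 and 90.9 at 50 nM, and 58.9 and 57.9 at 250 nM. In Cov it had 129.9 and 146 in DMSO, 78.2 and 95.2 at 50 nM, and 59.5 and 55.7 at 250 nM. The groups kept their order without overlap in both lines. At 50 nM the log2 fold change was -0.25 ± 0.08 in Ku (limma, adjusted p = 0.0350) and -0.67 ± 0.12 in Cov (limma, adjusted p = 0.00108), neither called. At 250 nM it was -0.94 ± 0.08 in Ku and -1.24 ± 0.12 in Cov, both called, and 59.0% of active genes in Ku and 53.6% in Cov fell further. Pseudogenes carrying its name, 4 in number, are annotated, and reads shared with them would make its level uncertain.

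ELL2 was the rarest of the 10. On the spike-in scale it was the only one with both 50 nM libraries above both DMSO libraries in one line and below both in the other. With equal medians and with median-of-ratios scaling its 50 nM log2 fold change in Cov was positive, as in Ku. In Ku it had 1.72 and 1.48 FPKM in DMSO, 2.11 and 1.87 at 50 nM, and 0.668 and 0.687 at 250 nM. In Cov it had 10.3 and 11.7 in DMSO, 5.67 and 6.59 at 50 nM, and 2.03 and 1.98 at 250 nM. Both 50 nM libraries lay above both DMSO libraries in Ku, as for 3.45% of active genes, and below both in Cov, as for 95.7%, and 2.65% of active genes did both. The 50 nM log2 fold change was 0.20 ± 0.09 in Ku, which was not called (limma, adjusted p = 0.117), and -0.75 ± 0.11 in Cov, which was (limma, adjusted p = 0.000534). This Cov call was lost with no minimum FPKM (adjusted p = 0.00156) and without either DMSO library or 50 nM replicate 1. At 250 nM ELL2 had -0.63 ± 0.09 in Ku and -1.99 ± 0.11 in Cov on the log2(FPKM + 1) scale, which understates the change of so low a transcript in Ku: 42.3% and 18.3% of the DMSO FPKM remained. The Ku call at 250 nM (limma, adjusted p = 0.000876) was lost with a pseudocount of 0.1 (-1.13, adjusted p = 0.00111), with no minimum FPKM and whenever 1 library was left out, with values between -0.70 and -0.56. As for TCEA1, 4 pseudogenes carry the name of ELL2.

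Across both doses on the spike-in scale, 7 of 10 members in Ku and 10 of 10 in Cov were in dose order. That is, every DMSO library lay above every 50 nM library, and every 50 nM library above every 250 nM library. Of active genes 66.7% and 73.8% were in this order too. The 3 exceptions in Ku were CTR9, LEO1 and ELL2. With equal medians 0 and 1 members were in order, and with median-of-ratios scaling 1 and 3. The share of active genes was not counted on those scales, so this drop cannot be read as a result about the members. Between 250 nM and 50 nM, 9 of 10 members were called lower in Ku (36.0% of active genes) and 7 of 10 in Cov (24.4%), against 1 and 2 with equal medians (6.55% and 4.95%) and 1 and 4 with median-of-ratios scaling (11.1% and 7.92%). The member not called in Ku was SUPT4H1 (limma, adjusted p = 0.00135), and those in Cov were SUPT4H1, SUPT5H and TCEA1. All 10 members in Ku and 9 in Cov fell by more in this step than the median active gene, with medians of -1.18 for the members and -0.62 for active genes in Ku, and -0.85 and -0.41 in Cov. These counts in Ku rested on single libraries: with 1 left out, 2 to 9 members were called, with 2 without 50 nM replicate 1 or 250 nM replicate 1 (5.89% and 5.55% of active genes), 4 without 50 nM replicate 2 (11.2%) and 3 without 250 nM replicate 2 (7.17%), so that calls over all active genes fell in number as well. In Cov 4 to 6 were called, with 4 without 250 nM replicate 1 or 2 (11.9% and 10.7% of active genes). The number of members falling by more than the median active gene in this step also moved with the processing. It was 8 in each line with a pseudocount of 0.1, a minimum FPKM of 10 or median-of-ratios scaling. With equal medians it was 7 in each line, and with no minimum FPKM 10 in each. The 3 comparisons of a line share libraries and are not independent. On the spike-in scale no member was called higher by limma in any of the 6 comparisons, where 0.0842%, 0.0491% and 0.0421% of active genes were in Ku and 0.0772%, 0.105% and 0.0842% in Cov, and 0 members were higher at an unadjusted p under 0.05; at that level 6 of 10 were lower at 50 nM in Ku, beside 61.0% of active genes.

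The wider elongation machinery was described with a list of 32 further genes, 31 of them active. At 250 nM against DMSO 25 of 31 were called lower in Ku (68.6% of active genes) and 31 of 31 in Cov (84.0%) on the spike-in scale, with 0 called higher. Equal medians gave 3 lower and 9 higher in Ku (11.6% and 26.9% of active genes) and 6 lower and 11 higher in Cov (11.3% and 26.4%). The list's median log2 fold change was -1.35 in Ku and -1.42 in Cov, beside -1.11 and -1.31 for active genes. At 50 nM 2 of 31 were called lower in Ku (11.3% of active genes) and 25 of 31 in Cov (70.5%), and between 250 nM and 50 nM 17 were in Ku (36.0%) and 13 in Cov (24.4%). Single libraries moved these counts, as they moved those over all active genes: 16 were called at 250 nM in Ku without 250 nM replicate 1 (42.7% of active genes), 16 or 6 at 50 nM in Cov without DMSO replicate 1 or 2 (48.4% and 30.3%), and 0 at 50 nM in Ku without any 1 library (at most 0.919%). Between 250 nM and 50 nM, 8 were called in Cov without 250 nM replicate 2 (10.7%), and in Ku 2 without 50 nM replicate 1 or 250 nM replicate 1 (5.89% and 5.55%), 6 without 50 nM replicate 2 (11.2%) and 4 without 250 nM replicate 2 (7.17%). At an unadjusted p under 0.05, 0 of the list were higher in any comparison.

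NELF, the partner of DSIF in pausing, was called lower at 250 nM in all 4 of its subunits in both lines (68.6% of active genes in Ku and 84.0% in Cov were), though the NELFCD call in Ku (limma, adjusted p = 0.000724) was lost with no minimum FPKM, with only the 2 groups fitted, without the trend and without any 1 library other than DMSO replicate 2. NELFA had the largest fall of the 4. NELFA had 20.4 and 21.1 FPKM in DMSO, 6.18 and 6.23 at 50 nM, and 2.64 and 2.56 at 250 nM in Cov, and at 250 nM its log2 fold change was -2.59 in Cov and -2.74 in Ku. NELFB, NELFCD and NELFE had -1.41, -0.63 and -1.14 in Ku and -1.15, -1.11 and -1.14 in Cov, and on the equal-median scale these 3 were above 0 in both lines. IWS1, which binds SPT6 and the polymerase, had the largest fall of the list in both lines, -2.89 ± 0.12 in Ku and -3.41 ± 0.11 in Cov, beside -1.38 ± 0.10 and -1.68 ± 0.10 for SUPT6H. SSRP1 and SUPT16H, the subunits of the histone chaperone FACT, had -0.86 and -1.03 in Ku and -1.02 and -1.42 in Cov, with positive values on the other scales. WDR61, the remaining subunit of the PAF1 complex, also part of the SKI complex of RNA decay, had -0.68 in Ku and -1.20 in Cov, smaller falls than those of the 5 PAF1 complex members in each line, and positive values on the other scales. The Ku call of WDR61 was lost without DMSO replicate 1 or either 250 nM library, and that of SSRP1 without 250 nM replicate 2.

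The relatives of TCEA1 and ELL2 differed in level and change. TCEA2 and TCEA3, the tissue-restricted TFIIS genes, had log2 fold changes of -0.66 and -0.38 in Ku (limma, adjusted p = 0.00212 and 0.0283), which were not called, and -0.70 and -0.88 in Cov, which were; the TCEA2 call in Cov was lost without DMSO replicate 1, DMSO replicate 2 or 250 nM replicate 1, and that of TCEA3 without DMSO replicate 2. TCEANC, a TFIIS-domain gene, had -0.51 in Ku (limma, adjusted p = 0.0168) from libraries that were all under 1 FPKM, where the pseudocount of 1 keeps the value small: 17.8% of its DMSO FPKM remained. ELL, the founding gene of the ELL family, had -1.58 in Ku and -1.22 in Cov, both called, the first not without DMSO replicate 1 or 250 nM replicate 1, and ELL3 had -0.53 in Ku (limma, adjusted p = 0.0435, not called) and -1.04 in Cov. PHF3, which binds the polymerase tail and carries a TFIIS-like domain, had the second largest fall of the list in Cov, -2.76. TCEB2 (Elongin B), a subunit shared with ubiquitin ligases, had the smallest in Cov, -0.62, and kept 64.8% of its DMSO level. This call was lost with no minimum FPKM and without DMSO replicate 2 or either 250 nM library. On both other scales TCEA2, TCEA3 and TCEB2 had positive values in both lines, as did ELL in Cov and ELL3 in Ku.

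**Figure D5:**
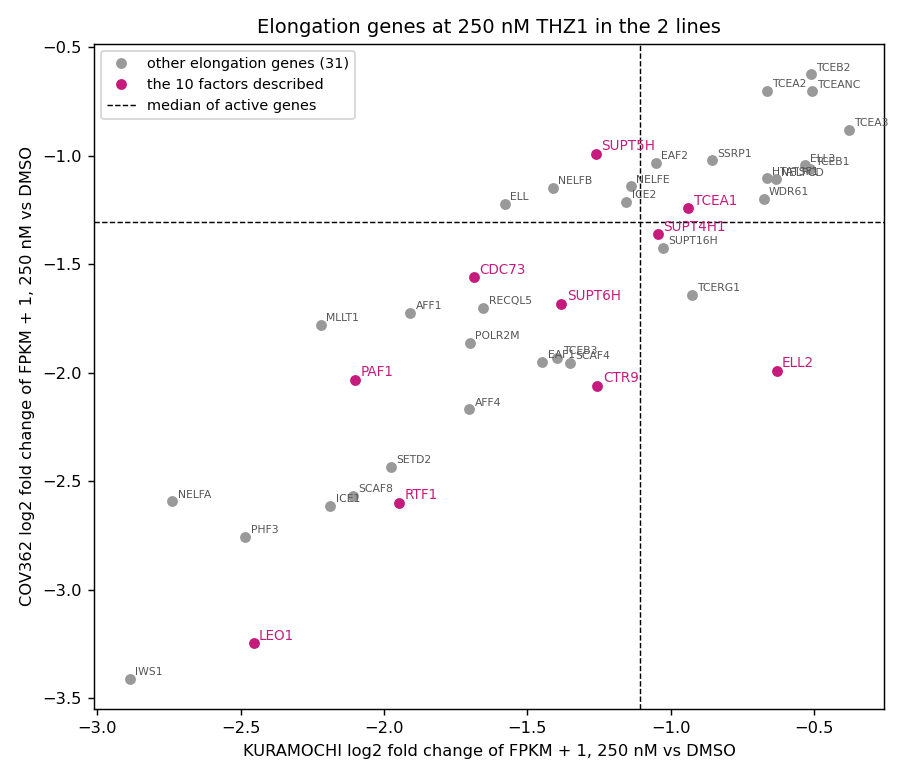
Log2 fold change at 250 nM against DMSO on the spike-in scale in KURAMOCHI (x axis) and COV362 (y axis) for the 10 factors (magenta) and the 31 other active elongation genes (grey); dashed lines mark the median of all active genes in each line. LEO1 lies beside IWS1 at the lower left, at -2.46 and -3.25, and ELL2 lies apart at -0.63 in KURAMOCHI and -1.99 in COV362; several genes at the upper right have positive values on other scales.

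LEO1 had the largest mean fall of the members at 250 nM over both lines and TCEA1 the smallest. The active genes nearest to LEO1 over the 12 libraries, by the root mean square distance of log2(FPKM + 1) centred on the DMSO libraries of each line, were AAR2 (0.0733 log2 units), DBR1 (0.0809) and TICRR (0.111). Those nearest to TCEA1 were CCDC47 (0.0402), MRPL19 (0.0538) and SET (0.0590).

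The 10 genes lie on 7 chromosomes and differ widely in size. In GRCh37 coordinates PAF1 (chr19:39876269-39881794, minus strand) is the shortest with 5.5 kb, and SUPT5H (chr19:39926796-39967310, plus strand) lies on the same chromosome. SUPT4H1 (chr17:56422536-56430454, minus) and SUPT6H (chr17:26989216-27029697, plus) share chromosome 17, and LEO1 (chr15:52230222-52263975, minus) and RTF1 (chr15:41700606-41775761, plus) chromosome 15. CTR9 is at chr11:10772793-10823172 (plus), CDC73 at chr1:193091113-193223945 (plus), ELL2 at chr5:95220802-95297555 (minus), and TCEA1 on chromosome 8. CDC73 is the longest with 132.8 kb, and the median was 45.4 kb, against 31.7 kb for active genes with an annotated length. Across the 10 members, Spearman's rho of gene length with the 250 nM log2 fold change was 0.33 in Ku and 0.08 in Cov, a description over genes that share libraries; over 12634 active genes it was 0.01 and -0.09. PAF1, the shortest gene, fell further than CDC73, the longest, in both lines, while SUPT4H1, with 7.9 kb, fell less than CDC73 in both. A role of gene length was not tested. Exon bases of CTR9 (142 with the snoRNA SNORD97 and 134 with EIF4G2), RTF1 (174 with NDUFAF1), CDC73 (123 with B3GALT2), PAF1 (82 with SAMD4B), SUPT6H (48 with a lncRNA that has no symbol) and LEO1 (4 with TMOD3) are also covered by a gene on the opposite strand.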

How the data were processed

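RNA-seq of poly(A) RNA was analysed in 12 libraries, 2 per group. Per the labels and the study's methods, ERCC spike-in RNAs were added to RNA normalized by cell count, stranded single-end reads were aligned to hg19 with HISAT, and FPKM from Cufflinks and Cuffnorm were normalized to the spike-ins by the authors, who deposited 1 FPKM table per line (23713 rows, of which 92 are ERCC). FPKM are not counts, so the count test that the study names was not run, and no interval from depth can be given.

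Samples were grouped by the labels. Each line was fitted alone with limma 3.58.1 in R 4.3.3 (lmFit, eBayes with a trend) on log2(FPKM + 1), with 3 groups of 2 libraries, two-sided tests and Benjamini-Hochberg adjustment over 14251 active genes. The fit was tested on simulated data. All 10 members were named. Of the list of 32 further elongation genes, the text names NELF, WDR61, IWS1, SSRP1, SUPT16H, TCEA2, TCEA3, ELL, ELL3 and, in each line at 250 nM, the 2 with the largest and the 2 with the smallest fall. The nearest genes are given for the members with the largest and smallest mean fall at 250 nM. Members, lists and rules were chosen with earlier results of these data known. Positions came from GENCODE lifted to GRCh37, with plots from matplotlib 3.10.9 (Python 3.11.15).

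The alternatives comprised 0.1 as pseudocount, 10 or nothing as the FPKM minimum, equal medians, median-of-ratios scaling, only the 2 groups compared, the replicate block, a fit with no trend, thresholds of 0.05 on the adjusted p or 1 on the log2 fold change, and each library left out. Shares under the other scalings and with libraries left out were added after the data were seen.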

Additional observations from a re-analysis of the deposited data

Results flagged for a closer look

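On the spike-in scale ELL2 was the 1 member whose libraries moved in opposite directions in the lines at 50 nM against DMSO. Both treated libraries were above both DMSO libraries in Ku (log2 fold change 0.20) and below both in Cov (-0.75). The lines' tables were normalized separately, each line was fitted alone, and the difference between the lines was not tested. The same pattern was found in 378 of 14251 active genes (2.65%). With equal medians and with median-of-ratios scaling the log2 fold change of ELL2 in Cov was positive, as in Ku.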

How the results depend on the processing

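With equal medians the counts of members called lower became, for 50 nM against DMSO, 250 nM against DMSO and 250 nM against 50 nM, 0, 1 and 1 in Ku (0.737%, 11.6% and 6.55% of active genes) and 0, 2 and 2 in Cov (0.147%, 11.3% and 4.95%), and those of the further elongation genes 0, 3 and 5 in Ku and 0, 6 and 5 in Cov; 0 members in Ku and 1 in Cov kept the order of doses. With median-of-ratios scaling the counts were 0, 1 and 1 (2.72%, 19.0% and 11.1% of active genes) and 0, 3 and 4 (0.772%, 18.9% and 7.92%) for members, 0, 5 and 8 and 0, 7 and 7 for the further genes, and 1 and 3 for the order. The share of active genes in dose order was not counted under these scalings, so the order counts cannot be read as a result about the members. The shares within the PAF1 complex cannot change under these scalings.

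Log2 fold changes that turned positive with equal medians follow. On this scale the median active gene in Ku was itself at 0.10 for 50 nM against DMSO and 0.29 for 250 nM against DMSO. It was at 0.24 for 250 nM against 50 nM. In Cov it was at 0.12, 0.31 and 0.21 in the same order. A positive value below these was lower than that of the median active gene. For Ku 50 nM against DMSO these were SUPT4H1 0.32, SUPT5H 0.40, SUPT6H 0.47, LEO1 0.58, CDC73 0.16, RTF1 0.25, TCEA1 0.45. For Ku 250 nM against DMSO these were SUPT4H1 0.87, SUPT5H 0.70, SUPT6H 0.52, CTR9 0.62, CDC73 0.15, TCEA1 1.02, ELL2 0.39, NELFB 0.50, NELFCD 1.33, NELFE 0.81, WDR61 1.26, SSRP1 1.11, SUPT16H 0.93, TCEA2 1.05, TCEA3 0.47, ELL3 0.57, TCEB2 1.46. For Ku 250 nM against 50 nM these were SUPT4H1 0.55, SUPT5H 0.30, SUPT6H 0.043, TCEA1 0.57. For Cov 50 nM against DMSO these were SUPT4H1 0.29, SUPT5H 0.49, SUPT6H 0.24, PAF1 0.019, CTR9 0.55, LEO1 0.14, CDC73 0.41, TCEA1 0.54, ELL2 0.33. For Cov 250 nM against DMSO these were SUPT4H1 0.67, SUPT5H 1.05, SUPT6H 0.25, CDC73 0.33, TCEA1 0.81, NELFB 0.88, NELFCD 0.94, NELFE 0.91, WDR61 0.86, SSRP1 1.04, SUPT16H 0.62, TCEA2 1.14, TCEA3 1.02, ELL 0.49, ELL3 0.23, TCEB2 1.45. For Cov 250 nM against 50 nM these were SUPT4H1 0.38, SUPT5H 0.56, SUPT6H 0.0085, TCEA1 0.27.

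Those that turned positive with median-of-ratios scaling follow. For Ku 50 nM against DMSO these were SUPT4H1 0.18, SUPT5H 0.25, SUPT6H 0.33, LEO1 0.44, CDC73 0.022, RTF1 0.11, TCEA1 0.31. For Ku 250 nM against DMSO these were SUPT4H1 0.36, SUPT5H 0.18, SUPT6H 0.014, CTR9 0.12, TCEA1 0.50, ELL2 0.12, NELFCD 0.81, NELFE 0.29, WDR61 0.75, SSRP1 0.59, SUPT16H 0.41, TCEA2 0.59, TCEA3 0.24, ELL3 0.27, TCEB2 0.94. For Ku 250 nM against 50 nM these were SUPT4H1 0.18, TCEA1 0.20. For Cov 50 nM against DMSO these were SUPT4H1 0.11, SUPT5H 0.30, SUPT6H 0.059, CTR9 0.38, CDC73 0.24, TCEA1 0.35, ELL2 0.16. For Cov 250 nM against DMSO these were SUPT4H1 0.22, SUPT5H 0.60, TCEA1 0.36, NELFB 0.43, NELFCD 0.49, NELFE 0.46, WDR61 0.40, SSRP1 0.59, SUPT16H 0.17, TCEA2 0.74, TCEA3 0.60, ELL 0.11, TCEB2 0.99. For Cov 250 nM against 50 nM these were SUPT4H1 0.12, SUPT5H 0.30, TCEA1 0.0016.

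With no minimum FPKM, 0 members and 0 further genes were called at 50 nM in Ku (0.0127% of all genes), and 4 and 5 between 250 nM and 50 nM in Ku (8.05%). Fitting only the 2 groups gave 0 and 0 at 50 nM in Ku (0.0632% of active genes), and dropping the trend gave 0 members there (8.13%). An adjusted p under 0.05 gave 2 members and 9 further genes at 50 nM in Ku, beside 40.2% of active genes. A log2 fold change beyond 1 gave 0 members at 50 nM in Ku (8.62% of active genes), 3 members and 6 further genes at 50 nM in Cov (35.5%), and 4 members between 250 nM and 50 nM in Cov (14.3%). Their causes were not tested.

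Libraries sharing a replicate number did not deviate together (correlations from -0.0703 to 0.0282), so no pairing by number was visible in the values. The labels do not say whether libraries were paired when prepared. With the replicate block, 1 further gene was called at 50 nM in Ku (6.94% of active genes), 5 members and 13 further genes at 50 nM in Cov (7266 of 14251 active genes), and 3 and 7 between 250 nM and 50 nM in Cov (7.93% of active genes); the other counts stayed within 1.5 times those without it. Calls of members lost under the block were those of SUPT5H, CDC73 and ELL2 at 50 nM in Cov, ELL2 at 250 nM in Ku (adjusted p = 0.00201) and against 50 nM in Ku, and SUPT6H, PAF1, CDC73 and ELL2 between 250 nM and 50 nM in Cov; SUPT4H1 gained a call between 250 nM and 50 nM in Ku, and the calls of TCEA2, TCEANC and TCEB2 at 250 nM in Cov were lost.

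With 1 library left out, where the lone library of its group is assumed to vary like the other groups, the members called at 50 nM against DMSO, 250 nM against DMSO and 250 nM against 50 nM ranged over 0 to 0, 8 to 9 and 2 to 9 in Ku and 3 to 8, 10 to 10 and 4 to 6 in Cov, where the active genes called lower ranged from 0.0421% to 0.919%, 42.7% to 63.5% and 5.55% to 32.3% in Ku and 30.3% to 69.7%, 73.3% to 86.6% and 10.7% to 27.9% in Cov. At 50 nM in Cov 3 were called without DMSO replicate 2 and 5 without DMSO replicate 1. The further genes ranged over 0 to 0, 16 to 24 and 2 to 14 in Ku and 6 to 24, 28 to 31 and 8 to 13 in Cov. Members in order ranged over 7 to 8 in Ku and 10 to 10 in Cov. The share of active genes in order with a library left out was not counted. At 50 nM in Ku LEO1 ranged from -0.25 to 0.077 and CTR9 ranged from -0.029 to 0.17.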
